A study of Homo sapiens with 17 samples.

Results

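The 8 genes described here encode proteins of the RAS-RAF-MEK-ERK cascade: the adaptor GRB2, the RAS inactivator RASA1, the RAF kinases ARAF and BRAF, the MEK kinases MAP2K1 (MEK1) and MAP2K2 (MEK2), the ERK kinase MAPK3 (ERK1) and the ERK-activated kinase RPS6KA1 (RSK1). They were taken by gene symbol from the 16884 protein-coding genes of the deposited table, and all 8 had enough counts to be tested. In this cascade an activated growth factor receptor recruits GRB2, which brings an exchange factor to RAS. GTP-bound RAS recruits and activates RAF kinases, which phosphorylate MEK1 and MEK2, which in turn phosphorylate the ERK kinases. ERK then phosphorylates RSK kinases and transcription factors, and in airway epithelial cells the route carries growth factor signals to proliferation, migration and repair.

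BEAS-2B is an immortalised line derived from human bronchial epithelium, labelled wild type here and kept in the bronchial epithelial medium BEGM. The cells spent 24 h in this medium with 0 mM (control, 6 libraries), 10 mM (6 libraries) or 16 mM (5 libraries) acetaldehyde, a reactive aldehyde formed from ethanol and present in tobacco smoke. The series title names MAPK/ERK among the pathways of interest, and the comparisons ask whether messenger RNA of the cascade differed with dose. Phosphorylation of the kinases was not analysed here. Separate cultures for the libraries within a group are not stated in the labels, so p-values reflect no more than library-to-library spread, which may be technical. In bulk RNA, fewer cells with a transcript and less of it per cell cannot be told apart.

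Estimated counts totalled 15952673 to 18809242 per library. One library, number 1 at 10 mM, differed from all others: its log counts correlated across 11195 genes at r of 0.744 to 0.789 with the other 10 mM libraries, against at least 0.971 in every other pair within a group, and its TMM scaling factor was 0.559, against at least 0.967 elsewhere. The log2 changes of the 8 genes that were called are therefore given with and without it, a choice made after its values had been seen. Values of other genes are from all 17 libraries unless stated. Among 12 epithelial markers, 11 were in the table and 7 averaged at least 1 FPKM (fragments scaled by transcript length and library depth) in each group, led by KRT7, KRT8 and KRT18, whereas EPCAM, CDH1, KRT5 and KRT19 stayed under 0.1 FPKM. Of 10 fibroblast and mesenchymal markers, 9 were in the table, led by VIM and CDH2. In control 5 of them averaged at least 1 FPKM, and at 10 mM and 16 mM 4 did. COL1A2 and COL3A1 stayed under 0.1 FPKM in each group, as did DCN at 16 mM. The leukocyte list, 6 of 7 in the table, summed to 3.18 to 4.91 FPKM in control, 9.17 to 13.5 FPKM at 10 mM and 11.5 to 14.5 FPKM at 16 mM, led by CD68, with PTPRC, CD3E and ITGAM under 0.1 FPKM in each group.

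The cascade genes did not move as a block. At 16 mM, MAP2K1, GRB2 and RPS6KA1 were higher than in control, at 1.97, 1.31 and 1.19 times its level, and ARAF and RASA1 were lower, at 0.591 and 0.644 times. At 10 mM, MAP2K1, MAPK3 and RPS6KA1 were higher, at 1.40, 1.41 and 1.22 times, and RASA1 was lower, at 0.675 times. Between the doses, MAP2K1 and GRB2 were higher at 16 mM than at 10 mM, and MAPK3 and ARAF were lower. MAP2K2 was not called with all 17 libraries and was called lower in all 3 comparisons without 10 mM library 1, and BRAF was not called in any comparison of either fit.

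A gene was called where its Benjamini-Hochberg adjusted p from the quasi-likelihood test of edgeR, over all genes tested, was under 0.05 (edgeR adjusted p from here on). At 10 mM against control 4 of the 8 members were called, 3 higher and 1 lower, where 18.7% of the 12564 genes tested were called (9.41% higher and 9.3% lower). At 16 mM against the same 6 controls 5 of 8 were called, 3 higher and 2 lower, against 35.3% of all genes (17.3% and 18.1%). Between 16 mM and 10 mM 4 of 8 were called, 2 in each direction, against 14.1% (6.69% and 7.46%). Leaving out 10 mM library 1, 3 members were higher and 2 lower at 10 mM against control, where 45.2% of 12545 genes were called (22.4% and 22.8%). At 16 mM against control 3 were higher and 3 lower (65.9% of genes, 33.7% and 32.2%), and between the doses 2 were higher and 4 lower (44.1%, 23.2% and 20.9%). When libraries lying close together were also summed, leaving 2 sums a group, 3 of 8 were called at 16 mM against control (25.8% of genes), and edgeR called 0 at 10 mM against control (1.83%) and 0 between the doses (0%), with 3 members at an unadjusted p under 0.05 in each. The calls of single members at 10 mM against control and between the doses, given below, were thus lost with these sums. Those of GRB2 and RPS6KA1 at 16 mM against control were lost as well (edgeR adjusted p = 0.0813 and 0.236). The median log2 change over the members was 0.05 at 10 mM and -0.02 at 16 mM against control, beside 0.05 and 0.00 over all genes tested.

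**Figure D1:**
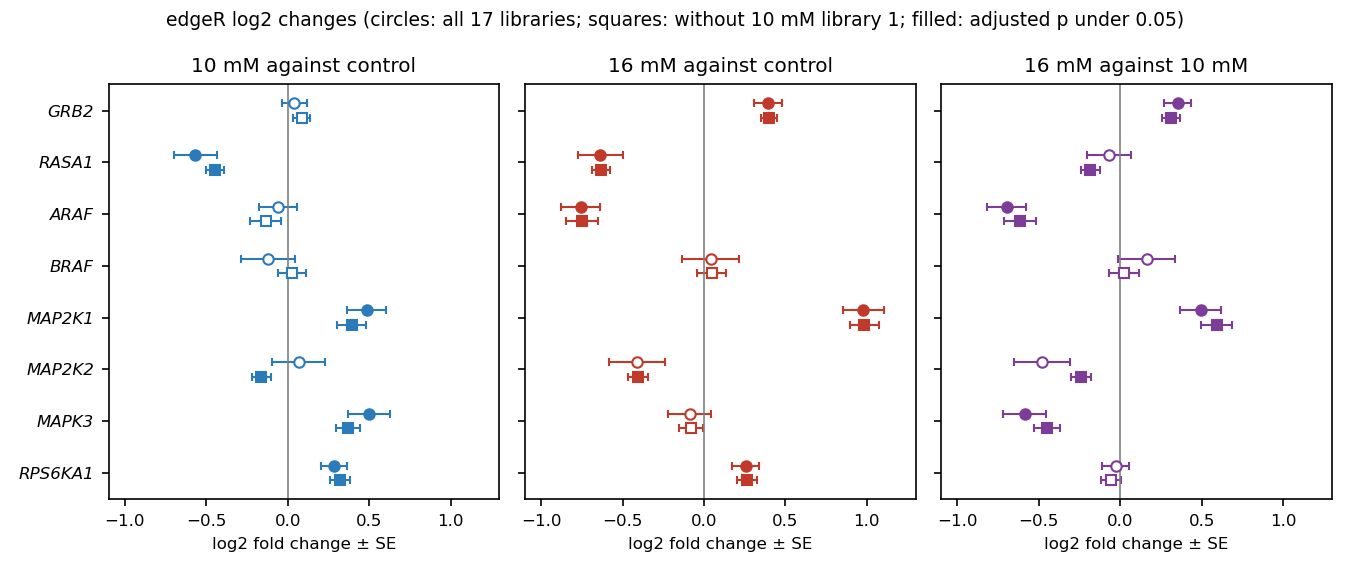
The horizontal axes give edgeR log2 fold changes with their standard errors for the 8 genes in the 3 comparisons; circles are from all 17 libraries, squares from the fit without 10 mM library 1, and filled symbols passed an adjusted p of 0.05. MAP2K1 lies furthest to the right at 16 mM against control (0.98) and ARAF furthest to the left (-0.76), and the square of MAP2K2 at 10 mM lies on the other side of 0 from its circle.

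GRB2 (chromosome 17, 75318076 to 75405681, GRCh38.p13 as for all positions below unless another build is named) encodes the adaptor that links receptors to RAS. It had 72.2 to 83.2 FPKM in the controls (median 76.2), 36.0 FPKM in 10 mM library 1 and 80.4 to 83.7 FPKM in the other 5 libraries at 10 mM, and 97.0, 98.1, 97.9, 101 and 105 FPKM at 16 mM. Every 16 mM library lay above every library of the other groups. Relative to control, GRB2 rose at 16 mM by 0.39 ± 0.08 on the log2 scale (± SE; edgeR adjusted p = 0.00144) and by 0.40 ± 0.05 without 10 mM library 1 (edgeR adjusted p = 3.72e-06). Between 16 mM and 10 mM the rise was 0.35 ± 0.08 (edgeR adjusted p = 0.0116), and 0.31 ± 0.05 without library 1 (edgeR adjusted p = 3.31e-04). At 10 mM against control the estimate was 0.04 ± 0.08 (edgeR adjusted p = 0.735), or 0.09 ± 0.05 without library 1 (edgeR adjusted p = 0.182). Tested with limma on log2(FPKM + 1) over all 17 libraries, the 16 mM difference was 0.37 from control (adjusted p = 0.102) and 0.48 from 10 mM (adjusted p = 0.0734).

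RASA1 (chromosome 5, 87155904 to 87391916) encodes a GTPase-activating protein that returns RAS to its inactive, GDP-bound state. Controls held 21.6 to 26.3 FPKM (median 23.9), 10 mM library 1 held 5.02 FPKM, the other 5 libraries at 10 mM held 18.0, 18.2, 18.1, 16.5 and 16.0 FPKM, and the 16 mM libraries held 15.9, 13.9, 15.5, 15.2 and 15.0 FPKM. No library at either dose reached the lowest control. RASA1 fell by 0.57 ± 0.13 on the log2 scale at 10 mM (edgeR adjusted p = 0.0061) and by 0.64 ± 0.14 at 16 mM (edgeR adjusted p = 0.00168) relative to control. Leaving out 10 mM library 1 gave falls of 0.44 ± 0.06 (edgeR adjusted p = 9.28e-06) and 0.63 ± 0.06 (edgeR adjusted p = 5.00e-08). Limma over all 17 libraries gave adjusted p = 0.0453 at 16 mM against control on log2(FPKM + 1) and 0.0583 on log2(FPKM + 0.1). Between the doses, 16 mM stood at -0.07 ± 0.14 against 10 mM with all libraries (edgeR adjusted p = 0.756) and at -0.18 ± 0.06 without library 1, which was called (edgeR adjusted p = 0.0165). RASA1 and the gene CCNH overlap in the annotation, and with no strand stated in these sources, reads of the shared stretch cannot be assigned with certainty.

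ARAF (chromosome X, 47555870 to 47571927), a RAF kinase that phosphorylates MEK, differed from control at the higher dose. Its level was 32.0 to 35.6 FPKM in the controls (median 33.7), 21.8 FPKM in 10 mM library 1, 27.7 to 33.1 FPKM in the other 5 libraries at 10 mM, and 25.0, 22.7, 23.3, 15.3 and 15.8 FPKM at 16 mM. All 5 libraries at 16 mM lay below every control, and libraries 4 and 5 lay below the other 3. ARAF fell at 16 mM by 0.76 ± 0.12 on the log2 scale against control (edgeR adjusted p = 1.49e-04) and by 0.70 ± 0.12 against 10 mM (edgeR adjusted p = 0.00208). Without 10 mM library 1 the falls were 0.75 ± 0.10 (edgeR adjusted p = 3.03e-06) and 0.61 ± 0.10 (edgeR adjusted p = 1.90e-04). At 10 mM the estimate against control was -0.06 ± 0.11 (edgeR adjusted p = 0.737), or -0.14 ± 0.09 without library 1 (edgeR adjusted p = 0.254). SYN1 overlaps ARAF and RefSeq lists ARAF pseudogenes, and the counts of ARAF were fractional in 0 of 17 libraries.

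BRAF (chromosome 7, 140713328 to 140924929), the RAF kinase with the highest basal activity, had the lowest level of the 8 genes in every library. It had 7.12 to 9.15 FPKM in the controls (median 8.24), 2.05 FPKM in 10 mM library 1, 6.78 to 9.52 FPKM in the other libraries at 10 mM, and 8.94, 9.31, 9.30, 7.36 and 7.00 FPKM at 16 mM. With 10 mM library 1 set aside, the 3 dose groups overlapped across almost their whole range. Within each group the values fell into separate sets, with 8.45 to 9.52 FPKM in controls 1 to 3, 10 mM libraries 2 to 4 and 16 mM libraries 1 to 3, and 6.78 to 7.42 FPKM in controls 4 to 6, 10 mM libraries 5 and 6 and 16 mM libraries 4 and 5. Numbers 1 to 3 or 2 to 4 thus held one level and the higher numbers the other at every dose, and the labels name no batch for them. Against control the edgeR estimate was -0.12 ± 0.17 at 10 mM (edgeR adjusted p = 0.633) and 0.04 ± 0.18 at 16 mM (edgeR adjusted p = 0.884). In the fit lacking 10 mM library 1 these were 0.03 ± 0.09 and 0.05 ± 0.09, with 95% intervals of -0.14 to 0.20 and -0.12 to 0.22.

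Of the MEK genes, MAP2K1 was higher at both doses, and MAP2K2 was called lower without 10 mM library 1 but not with all libraries. MAP2K1 (chromosome 15, 66386912 to 66491544), which encodes MEK1, had 33.9 to 38.0 FPKM in the controls (median 35.9), 37.3 FPKM in 10 mM library 1, 45.8 to 47.3 FPKM in the other 5 libraries at 10 mM, and 59.8, 65.1, 62.2, 82.0 and 78.0 FPKM at 16 mM. The groups did not overlap once 10 mM library 1 was set aside, and 16 mM libraries 4 and 5 were the highest. MAP2K1 rose by 0.49 ± 0.12 on the log2 scale at 10 mM (edgeR adjusted p = 0.0106) and by 0.98 ± 0.13 at 16 mM (edgeR adjusted p = 1.76e-05) relative to control. Without library 1 the rises were 0.39 ± 0.09 (edgeR adjusted p = 0.002) and 0.98 ± 0.09 (edgeR adjusted p = 6.72e-08). The rise between 16 mM and 10 mM was 0.49 ± 0.13 (edgeR adjusted p = 0.0172), and 0.59 ± 0.09 without 10 mM library 1 (edgeR adjusted p = 1.65e-04). With all other libraries kept, the call was lost without 16 mM library 4 (0.40, edgeR adjusted p = 0.0648) or 16 mM library 5 (0.43, edgeR adjusted p = 0.0612). MAP2K1 overlaps SNAPC5 and has the pseudogene MAP2K1P1, and its counts were fractional in all 17 libraries, as were those of BRAF and RASA1, so reads may have been shared with other genes.

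MAP2K2 (chromosome 19, 4090321 to 4124184), which encodes MEK2, had the higher level of the MEK pair in every library. It had 112 to 134 FPKM in the controls (median 127), 122 FPKM in 10 mM library 1, 119, 118, 113, 107 and 104 FPKM in the other libraries at 10 mM, and 101, 104, 93.4, 83.9 and 89.3 FPKM at 16 mM. Every 16 mM library lay below every control, and the 10 mM libraries overlapped the controls, with their lowest (103.9 FPKM) just above the highest at 16 mM (103.7 FPKM). In FPKM, 10 mM library 1 was the highest of its group, and on edgeR's scale it was higher still, with 310 CPM (counts scaled to library size) against 144 to 155 CPM in the other 5. With all libraries, MAP2K2 stood at -0.41 ± 0.17 at 16 mM against control (edgeR adjusted p = 0.0727) and at 0.07 ± 0.16 at 10 mM (edgeR adjusted p = 0.791). Once 10 mM library 1 was left out, it fell by 0.40 ± 0.06 at 16 mM (edgeR adjusted p = 1.34e-05) and by 0.16 ± 0.06 at 10 mM (edgeR adjusted p = 0.0331). Its biological coefficient of variation, a measure of spread that edgeR estimated per gene before the fit, was then 0.0743 in place of 0.211. A fit of only the 16 mM and control groups, which do not hold 10 mM library 1, gave -0.41 ± 0.07 (edgeR adjusted p = 1.54e-04). With the sums of close libraries the 16 mM difference missed the threshold (edgeR adjusted p = 0.0509). Limma on log2(FPKM + 1) without library 1 gave -0.16 at 10 mM (adjusted p = 0.0518). In the authors' deposited table the log2 change of MAP2K2 between 16 mM and control was -0.41 with a q-value of 3.79e-08.

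**Figure D2:**
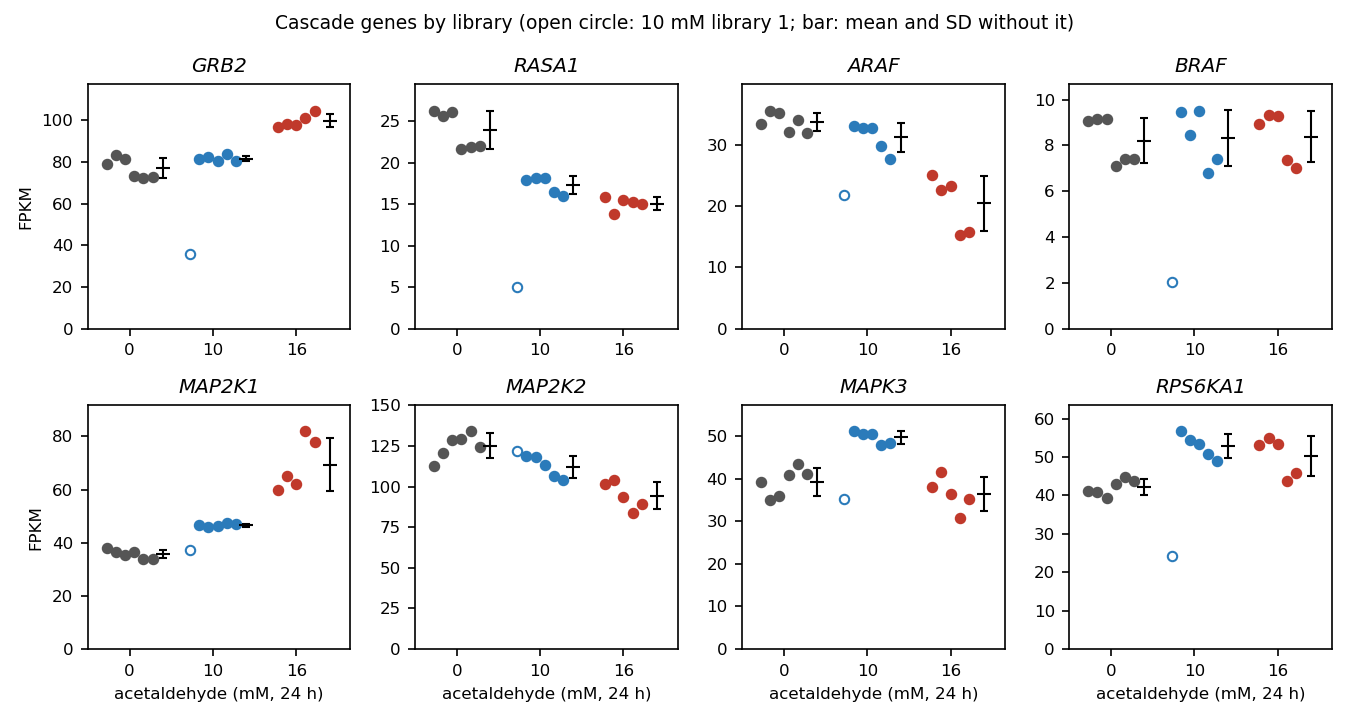
Each panel gives the FPKM of 1 gene in every library by acetaldehyde dose (0, 10 and 16 mM, 24 h); points are libraries in the order of their numbers, the open circle is 10 mM library 1, and the bar is the mean ± SD without it. MAP2K1 reaches 59.8 to 82.0 FPKM at 16 mM above every other library, RASA1 lies below its controls at both doses, and BRAF lies between 6.78 and 9.52 FPKM at every dose when 10 mM library 1 is left out.

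Since both MEK genes are measured in the same library, their ratio does not depend on how libraries were scaled against each other. The ratio of MAP2K1 to MAP2K2 (FPKM) was 0.253 to 0.338 in the controls, 0.306 in 10 mM library 1, 0.388 to 0.451 in the other 5 libraries at 10 mM, and 0.589, 0.628, 0.666, 0.977 and 0.873 at 16 mM. At 16 mM the log2 ratio was 1.36 higher than in control, without overlap (mean -0.45 ± 0.32, n = 5, and -1.81 ± 0.14, n = 6; exact two-sided permutation test, p = 0.00217, the smallest these group sizes allow; adjusted p = 0.00371 over 12 tests of 4 ratios). At 10 mM it was 0.47 higher than in control (exact permutation test, adjusted p = 0.00649), and without library 1 it was 0.54 higher, without overlap (exact permutation test, adjusted p = 0.0052). MEK1 thus made up 22.3 ± 1.76% of the summed FPKM of the MEK pair in control (SD, n = 6), 29.4 ± 1.44% at 10 mM without library 1 (n = 5) and 42.3 ± 5.39% at 16 mM (n = 5). The sum itself was 161 ± 6.58 FPKM in control, 159 ± 6.33 FPKM at 10 mM without library 1 and 164 ± 5.40 FPKM at 16 mM, so group means differed by no more than the SD within a group.

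The RAF pair also differed in balance at 16 mM. The ratio of ARAF to BRAF was 2.07 to 2.80 at 16 mM and 3.68 to 4.61 in control, a log2 difference of -0.78 without overlap (exact permutation test, adjusted p = 0.00371). At 10 mM the ARAF to BRAF ratio differed from control by 0.12 (exact permutation test, adjusted p = 0.926), and by -0.13 without library 1 (exact permutation test, adjusted p = 0.168), where library 1 alone had a ratio of 10.7.

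MAPK3 (chromosome 16, 30114105 to 30123309), which encodes ERK1, was highest at the middle dose. It had 34.9 to 43.3 FPKM in the controls (median 40.0), 35.3 FPKM in 10 mM library 1, 51.1, 50.6, 50.5, 47.8 and 48.3 FPKM in the other libraries at 10 mM, and 38.0, 41.6, 36.5, 30.7 and 35.1 FPKM at 16 mM. With library 1 set aside, the 10 mM libraries lay above every library of the other groups, and the 16 mM libraries overlapped the controls. MAPK3 rose by 0.50 ± 0.13 on the log2 scale at 10 mM against control (edgeR adjusted p = 0.0114), and by 0.37 ± 0.08 without library 1 (edgeR adjusted p = 7.57e-04). It fell by 0.59 ± 0.13 between 16 mM and 10 mM (edgeR adjusted p = 0.00957), or by 0.45 ± 0.08 without library 1 (edgeR adjusted p = 3.43e-04). At 16 mM against control the estimate was -0.09 ± 0.13 (edgeR adjusted p = 0.651), with an interval of -0.23 to 0.07 without library 1. Limma on log2(FPKM + 1) over all 17 libraries gave 0.26 at 10 mM against control (adjusted p = 0.0911). Without library 1 it gave 0.34 (adjusted p = 8.99e-04).

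RPS6KA1 (band 1p36.11) encodes RSK1, a kinase that ERK activates. It had 39.4 to 44.9 FPKM in the controls (median 42.1), 24.3 FPKM in 10 mM library 1, 49.0 to 56.7 FPKM in the other 5 libraries at 10 mM, and 53.2, 55.0, 53.4, 43.6 and 45.7 FPKM at 16 mM. The 10 mM libraries other than library 1 lay above every control, and at 16 mM library 4 lay within the control range. In the first of the sets seen for BRAF, 16 mM libraries 1 to 3 had 53.2 to 55.0 FPKM, against 39.4 to 41.1 FPKM in controls 1 to 3. In the other set, 16 mM libraries 4 and 5 had 43.6 and 45.7 FPKM, against 43.1 to 44.9 FPKM in controls 4 to 6. The ranges overlapped in that set and not in the first. RPS6KA1 rose by 0.28 ± 0.08 on the log2 scale at 10 mM (edgeR adjusted p = 0.0196) and by 0.26 ± 0.08 at 16 mM (edgeR adjusted p = 0.0224) relative to control. These calls were lost without control 2 (edgeR adjusted p = 0.0526 at 10 mM and 0.054 at 16 mM) and without control 3 (edgeR adjusted p = 0.0524 and 0.0551), and the call at 16 mM was also lost without 16 mM library 2 (edgeR adjusted p = 0.0572). Limma on log2(FPKM + 1) over all libraries gave 0.14 at 10 mM (adjusted p = 0.586) and 0.24 at 16 mM (adjusted p = 0.292). Without 10 mM library 1 the rises were 0.32 ± 0.06 (edgeR adjusted p = 3.94e-04) and 0.26 ± 0.06 (edgeR adjusted p = 9.47e-04).

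Neither RPS6KA2 nor RPS6KA3 was called higher. RPS6KA2, which encodes RSK3, averaged 29.8 ± 0.82 FPKM in control, 17.5 ± 1.10 FPKM at 10 mM without library 1 and 11.1 ± 1.68 FPKM at 16 mM. It fell by 1.42 ± 0.12 on the log2 scale at 16 mM (edgeR adjusted p = 2.34e-07) and by 0.86 ± 0.11 at 10 mM (edgeR adjusted p = 6.03e-05). Without 10 mM library 1 it fell by 1.41 ± 0.07 (edgeR adjusted p = 3.19e-11) and 0.77 ± 0.06 (edgeR adjusted p = 1.33e-07). RPS6KA3, which encodes RSK2, stood at -0.09 ± 0.13 at 16 mM against control (edgeR adjusted p = 0.616). At 10 mM it was called lower without library 1 (-0.20 ± 0.04, edgeR adjusted p = 7.88e-04) but not with it (-0.32 ± 0.12, edgeR adjusted p = 0.0732). The ratio of RPS6KA1 to RPS6KA3 was 0.63 higher on the log2 scale at 10 mM than in control, without overlap (exact permutation test, adjusted p = 0.00371), and 0.33 higher at 16 mM, with overlap (exact permutation test, adjusted p = 0.00866). Without library 1 the difference at 10 mM was 0.56 (exact permutation test, adjusted p = 0.0052). RSK1 made up 41.8 ± 1.69% of the summed FPKM of the RSK genes in control, 55.7 ± 1.31% at 10 mM without library 1 and 56.6 ± 1.80% at 16 mM.

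**Figure D3:**
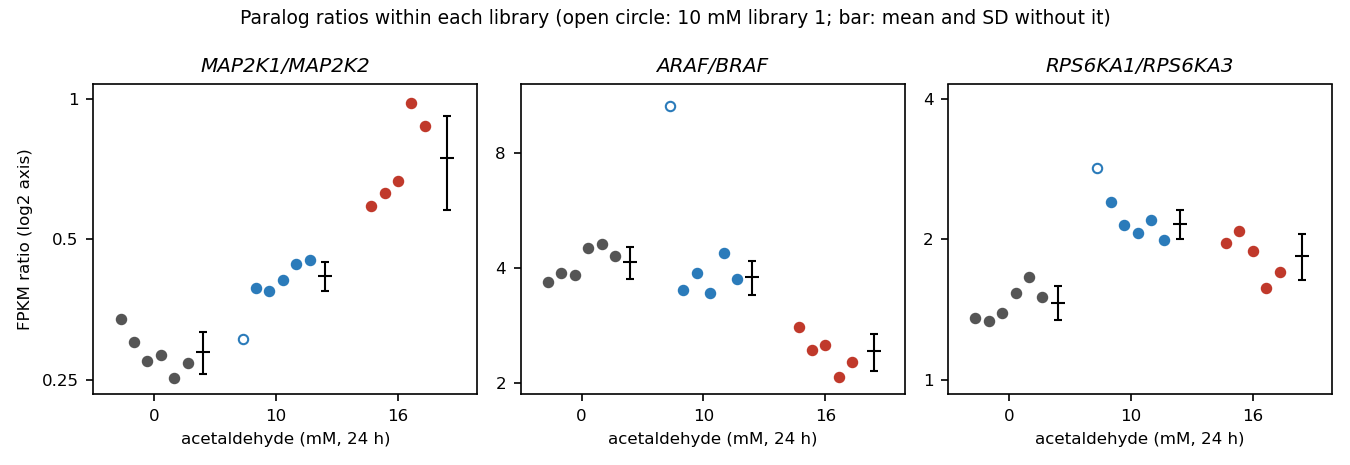
Each panel gives the ratio of FPKM of a pair of related kinase genes within each library on a log2 axis, by acetaldehyde dose (mM, 24 h); points are libraries, the open circle is 10 mM library 1, and the bar is the mean ± SD without it. The MAP2K1 to MAP2K2 ratio climbs to 0.589 to 0.977 at 16 mM, the ARAF to BRAF ratio lies below all controls there, and RPS6KA1 to RPS6KA3 is highest at 10 mM.

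Per length of transcript, the order of the 8 levels was led by MAP2K2 and GRB2 and ended with RASA1 and BRAF in control and, without library 1, at 10 mM. In 10 mM library 1 MAP2K1 ranked above GRB2. In the controls MAP2K2 (112 to 134 FPKM), GRB2 (72.2 to 83.2 FPKM) and the group of RPS6KA1, MAPK3, MAP2K1 and ARAF did not overlap with each other, whereas neighbours within that group overlapped. At 16 mM GRB2 exceeded MAP2K2 in 3 of 5 libraries and their ranges overlapped. In control, MAP2K1 overlapped MAPK3 and ARAF in level, and at 16 mM it came next after GRB2 and MAP2K2, above the highest RPS6KA1 library in all 5 libraries. ARAF and RASA1 did not overlap in control (at least 32.0 and at most 26.3 FPKM), and their ranges did at 16 mM (15.3 to 25.0 and 13.9 to 15.9 FPKM).

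Across the 16 libraries without 10 mM library 1, log2 CPM of MAP2K1 correlated with those of GRB2 at r = 0.963 and with those of ARAF at r = -0.962, and ARAF with GRB2 at r = -0.974. These libraries share dose groups and close sets, so the values only describe the common order. BRAF had r between -0.197 and 0.114 with each other member. Among 9503 genes with a mean of at least 5 FPKM, the closest to MAP2K1 were DBR1, which encodes the lariat debranching enzyme (r = 0.994), and KLHL18 and KLHL21, which encode substrate adaptors of ubiquitin ligases (r = 0.992 each). Closest to ARAF were VWA8 and the tetraspanin gene TSPAN15 (r = 0.992 each), and closest to GRB2 was TTI1, a subunit of a cochaperone of large kinases (r = 0.994). RASA1 lay closest to the endoplasmic reticulum protein gene ERP29 (r = 0.980) and to APP (r = 0.977), RPS6KA1 to the actin regulator gene CORO1A (r = 0.970), and MAP2K2 to LGALS3BP (r = 0.986). MAPK3 was closest to SCARB1, LSS and PNPLA6 (r = 0.945 each), and BRAF to the DNA polymerase gene POLK (r = 0.926).

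For the genes that differed most at 16 mM, and the MEK paralog of MAP2K1, the 250 bases before the RefSeq start are given. The sequences run 5′ to 3′ on the gene's strand (GRCh38.p14). MAP2K1 is from chr15:66386662-66386911 (plus strand), MAP2K2 from chr19:4124123-4124372 (minus strand) and ARAF from chrX:47560955-47561204 (plus strand). RefSeq and deposited starts differ, so the ARAF window lies inside the deposited span of ARAF given above. The MAP2K2 window overlaps the edge of its deposited span. Capitals mark 4 motifs searched on both strands, none overlapping another: the cyclic AMP response element core TGACGT, the CCAAT box (CCAAT), the GC box (GGGCGG) and the E box (CACGTG).
MAP2K1: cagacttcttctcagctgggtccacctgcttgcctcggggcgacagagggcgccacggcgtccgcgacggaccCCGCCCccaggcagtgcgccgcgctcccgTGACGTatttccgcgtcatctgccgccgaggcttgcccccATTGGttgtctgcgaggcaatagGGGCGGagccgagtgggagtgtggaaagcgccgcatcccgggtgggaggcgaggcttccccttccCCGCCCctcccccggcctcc
MAP2K2: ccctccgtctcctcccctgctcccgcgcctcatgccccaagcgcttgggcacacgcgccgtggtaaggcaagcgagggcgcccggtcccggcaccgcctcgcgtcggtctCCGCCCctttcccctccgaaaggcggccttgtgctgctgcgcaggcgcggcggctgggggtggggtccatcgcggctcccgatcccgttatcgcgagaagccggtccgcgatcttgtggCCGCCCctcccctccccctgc
ARAF: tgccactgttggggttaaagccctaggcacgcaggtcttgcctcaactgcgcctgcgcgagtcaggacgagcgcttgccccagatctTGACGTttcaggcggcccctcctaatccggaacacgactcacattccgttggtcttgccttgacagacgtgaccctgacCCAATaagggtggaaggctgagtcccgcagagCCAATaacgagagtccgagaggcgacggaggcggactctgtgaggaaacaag
The MAP2K1 window held 1 cyclic AMP element core, 1 CCAAT box and 3 GC boxes, the MAP2K2 window held 2 GC boxes, and the ARAF window held 1 cyclic AMP element core and 2 CCAAT boxes. Of 35116 RefSeq windows of the same length, 7.1% held a cyclic AMP element core, 32% a CCAAT box, 42.6% a GC box and 6.34% an E box. These windows include more than 1 start for some genes. The cyclic AMP element core thus stood in the windows of MAP2K1, which was higher at 16 mM, and of ARAF, which was lower. The same core was in none of the windows searched for the other 6 members. MAP2K1, MAP2K2 and RPS6KA1 have 2 RefSeq starts, and only the window of the outermost was searched. MAPK3 held 6 GC boxes and 1 E box, GRB2 3 GC boxes, RASA1 1 GC box, RPS6KA1 4 GC boxes and 1 CCAAT box, and BRAF 1 CCAAT box. By the deposited spans given above, the windows of RASA1 and BRAF also lie inside the gene, and those of MAPK3 and GRB2 overlap its edge. A match describes these letters and not a bound site.

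The rest of the pathway was read from lists of its other components. The 22 genes of the lists below that were called at 16 mM against control were called in the same direction without 10 mM library 1. Their log2 estimates moved by at most 0.0147. That library is in neither group compared, and its removal acts only through scaling, the genes tested and the shared estimate of spread. The closeness of the 2 fits is therefore not a test of these calls. Among adaptors near the receptor, 4 of 11 tested genes were called at 16 mM against control, 3 higher and 1 lower, close to the share of all genes (35.3%). CRK, an adaptor with the same kinds of binding domain as GRB2, averaged 58.8 ± 7.66 FPKM at 16 mM and 37.6 ± 0.63 FPKM in control (0.67 ± 0.11 on the log2 scale, edgeR adjusted p = 1.44e-04). FRS2, which couples fibroblast growth factor receptors to GRB2, rose by 0.66 ± 0.19, while GAB2, a docking protein bound by GRB2, fell by 1.73 ± 0.29, to 0.556 ± 0.12 FPKM at 16 mM, against 1.83 ± 0.35 FPKM in control. SHC4 was called higher (1.83 ± 0.29) at very low levels, 0.21 ± 0.0566 FPKM at 16 mM and 0.095 ± 0.0399 FPKM in control. The edgeR estimate exceeds the ratio of these means, and 1 library at 16 mM (0.12 FPKM) lay within the control range. With 10 mM library 1 left out, 6 adaptors were higher and 2 lower, beside 65.9% of all genes called.

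Other genes that act on RAS itself were tested in the same fit. Of 11 RAS and exchange factor genes tested, 2 were called at 16 mM against control, both lower, where 18.1% of all genes were lower. They were RASGRP3, an exchange factor at 0.13 ± 0.07 FPKM at 16 mM and 0.413 ± 0.21 FPKM in control, and MRAS, whose edgeR adjusted p of 0.043 rose above 0.05 without each of 7 libraries in turn (0.052 to 0.118). Of 7 GTPase-activating protein genes other than RASA1, edgeR called 0 at 16 mM against control, where 35.3% of all genes were called. Of these, 1 had an unadjusted p under 0.05, as did 5549 of all 12564 genes tested. The DESeq2 Wald test called 1 of 8, and 5175 of all genes. Limma on log2(FPKM + 1) called 0 of 7, and 3703 of all genes. The 2 with the smallest edgeR p were RASAL2, at -0.49 ± 0.20 (edgeR adjusted p = 0.0722), and NF1, at -0.50 ± 0.31 (edgeR adjusted p = 0.234). In the fit lacking 10 mM library 1, 4 of the 7 were called at 16 mM, 1 higher and 3 lower, where 65.9% of all genes were called. RASAL2 (-0.48 ± 0.05, edgeR adjusted p = 5.10e-07) and NF1 (-0.49 ± 0.10, edgeR adjusted p = 2.65e-04) were among the lower.

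Of 6 other kinases that ERK regulates, edgeR called 3 at 16 mM against control, where 35.3% of all genes were called. RPS6KA2 was lower, and MKNK2, a kinase of the translation factor eIF4E, and RPS6KA4, which encodes MSK2, were higher (0.86 ± 0.23, edgeR adjusted p = 0.00737, and 0.60 ± 0.18, edgeR adjusted p = 0.014). Among 15 kinases of the parallel stress pathways, 4 were higher and 2 lower at 16 mM, near the share of all genes (35.3%). MAP2K3, which activates p38, rose 4.11-fold, to 38.3 ± 9.97 FPKM at 16 mM, against 9.37 ± 3.04 FPKM in control (edgeR adjusted p = 3.02e-05). MAP2K4, which activates JNK and p38, rose by 0.44 ± 0.12. MAP2K5, the activator of ERK5, fell by 1.38 ± 0.16, to 7.22 ± 2.45 FPKM at 16 mM, against 19.1 ± 2.42 FPKM in control (edgeR adjusted p = 6.49e-06). MAP2K6, a p38 activator at 0.568 ± 0.12 FPKM in control, fell by 1.53 ± 0.42. Without 10 mM library 1 the calls were 9 higher and 3 lower, beside 65.9% of all genes.

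Of 9 genes that ERK signalling is known to induce, 7 were called higher at 16 mM and 7 at 10 mM against control, where 17.3% and 9.41% of all genes were higher. The list's median log2 changes were 1.86 and 1.38. With the sums of close libraries 8 were called higher at 16 mM and 2 at 10 mM, where 25.8% and 1.83% of all genes were called in either direction. ETV4, an ETS transcription factor, averaged 26.5 ± 5.30 FPKM at 16 mM and 4.39 ± 1.68 FPKM in control (2.64 ± 0.23, edgeR adjusted p = 3.76e-07). SPRY4, a feedback inhibitor of the cascade, averaged 11.3 ± 1.40 FPKM at 16 mM and 1.76 ± 0.99 FPKM in control (2.70 ± 0.28, edgeR adjusted p = 2.01e-06). ETV5 rose by 2.46 ± 0.29 at 16 mM and by 1.55 ± 0.28 at 10 mM. The list was drawn up with results of these data known, so its count does not bear on its direction independently, and the difference between lists was not tested.

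**Figure D4:**
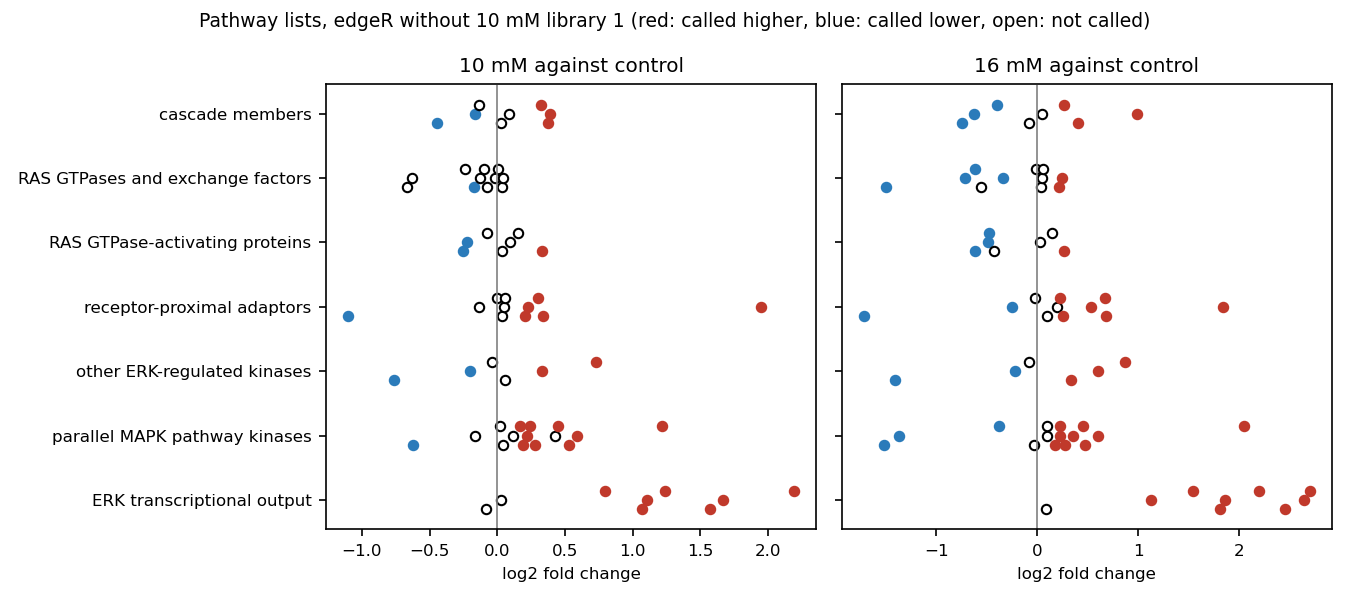
Each point is a tested gene of the list named at the left, placed by its edgeR log2 fold change in the fit without 10 mM library 1, at 10 mM (left panel) and 16 mM (right panel) against control; red points were called higher, blue points lower and open points were not called. The cascade members spread to either side of 0 (-0.75 to 0.98 at 16 mM). Of the 9 genes of ERK transcriptional output, 8 were called higher at 16 mM, where 33.7% of all genes were. That list was drawn up with results of these data known.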

How the data were processed

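RNA of 17 BEAS-2B libraries had been enriched for poly-A messages, per the labels' protocols; groups come from the sample titles. The submitters' processing notes name HISAT, Bowtie2 2.3.4.3, RSEM 1.3.1, DESeq2 1.4.5 and genome build GRCh38.p13, without their roles. The deposited read counts, so named per the file headers, were treated as estimated counts (expected counts), since 13.1% are not whole. The deposited FPKM values, per the file headers, are scaled for length and depth but not by TMM, and the deposited TPM values served to check the table. The authors' deposited table also holds log2 fold changes with p-values and q-values, signed as the second-named group over the first, and is named wherever its values appear.

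Counts were rounded and tested with edgeR 4.0.16 (R 4.3.3; TMM, filterByExpr, glmQLFit, glmQLFTest, two-sided) in 1 fit of 3 groups with 14 residual degrees of freedom; SE was taken as |log2 change| over the root of the F statistic, and 95% intervals are normal. Ratios of FPKM were tested by exact permutation. Total counts were 15952673 to 18809242 per library. Named genes are the 8 members, their paralogs, up to 3 called genes per direction and list by size of change at 16 mM (or the 2 with the smallest p), and the 3 genes of highest r per member; the text names part of them, and some results are not reported here. The members, lists and tests were chosen with earlier results of these data known. Alternatives were other scaling, filters, DESeq2 1.42.0, limma 3.58.1 on log2(FPKM + 1) or log2(FPKM + 0.1) (1 FPKM or more in 5 or more libraries), library weights, a replicate block, sums of close libraries and each library left out. The code was tested on simulated data. No pair of libraries within a group agreed within counting noise (chi-square per degree of freedom at least 1.757). Pairs inside the close sets given for BRAF had values of 1.757 to 12.58. Pairs from different sets of the same group had 22.36 to 58.95. The 14 residual degrees of freedom and the permutation tests nevertheless counted each library as a separate replicate. Whether libraries of a set came from separate cultures is not stated and was not tested. Promoter sequences are from RefSeq (GRCh38.p14), matched by symbol for 8 of 8 members.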

Additional observations from a re-analysis of the deposited data

Results flagged for a closer look

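In the 10 mM group, library 1 lay far from the other 5 for 6 of the 8 members, by Dixon's test of the gap to the nearest library over the whole range (95% critical value for 6 libraries). MAP2K1 had 37.25 FPKM in it, with a gap of 0.849 of the range, and MAPK3 had 35.27 FPKM (0.792). BRAF had 2.05 FPKM (0.633), RASA1 5.02 FPKM (0.833), GRB2 35.96 FPKM (0.931) and RPS6KA1 24.3 FPKM (0.762). Of 24 groups of values examined, 6 stood out in this way and all 6 were this library. Chance gives about 1 in 20 for 1 group of values. The 6 values come from 1 library and are not independent, so their count cannot be set against that share. The FPKM of 10 mM library 1 lay below the other 10 mM libraries for 7 members and above them for MAP2K2. On edgeR's TMM scale it lay above them for 4 (MAP2K1, MAP2K2, MAPK3 and ARAF) and below for the other 4, so its side changed with the scale for MAP2K1, MAPK3 and ARAF. The top 10 genes by count held 6.08% of this library, and no more than 3.45% of any other. Their part in the members' values was not tested.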

How the results depend on the processing

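In the order 10 mM against control, 16 mM against control, 16 mM against 10 mM, 4, 5 and 4 of the 8 members were called. Of all genes, 2351, 4439 and 1777 were called. Leaving out each library in turn gave 3 to 5, 4 to 6 and 3 to 6 members, where the highest counts came without 10 mM library 1. Of all genes, 1633 to 5670, 3559 to 8271 and 808 to 5537 were then called. The labels do not say whether replicate numbers pair the libraries, and the correlations do not settle it. Same-number correlations were -0.448 to 0.463, over 0.1 in 12 of 16 pairs, with the same number as best match in 8 of 32. A replicate block gave 3, 4 and 4 calls (1824, 4153 and 1304 of all genes), where RPS6KA1 was lost against control at 10 mM and 16 mM (edgeR adjusted p = 0.0568 and 0.0537). DESeq2 size factors gave 4, 5 and 4 (2426, 4427 and 1756 of all genes). No filter on low counts also gave 4, 5 and 4 (2117, 4531 and 1441), and the DESeq2 Wald test 4, 5 and 5 (3198, 5175 and 2643). Limma on log2(FPKM + 1) called 2 at 10 mM against control (1841 of all genes). On log2(FPKM + 0.1) it called 2 at 10 mM and 3 at 16 mM against control (1671 and 3498 of all genes). Without the filter, limma on log2(FPKM + 1) also called 2 and 3 (2102 and 4270). Library weights gave 8 at 16 mM against control, where 9201 of all genes were called. Fitting only the groups compared gave 2 between the doses, where 569 of all genes were called. Sums of close libraries gave 0, 3 and 0 by edgeR, where 246, 3477 and 0 of all genes were called, with 3, 5 and 3 members at an unadjusted p under 0.05; the cause was not tested. MAP2K2 at 10 mM against control lay between -0.16 and 0.13 with each library left out, and at -0.16 without 10 mM library 1, where it was called, as with DESeq2 (-0.16), its size factors (-0.16) and, on all libraries, library weights (-0.20). With those weights BRAF was called at 10 mM (0.18), as was MRAS (0.27), while controls 1 to 3 weighed 0.435 to 0.674 and control 6 weighed 4.31. MAP2K1, ARAF and RASA1 at 16 mM against control kept their calls without any single library. RASA1 lost its call there with limma on log2(FPKM + 0.1) (adjusted p = 0.0583) and on log2(FPKM + 1) without the filter (limma adjusted p = 0.0592). Precision is limited by 5 or 6 libraries a group, by the close sets among them and by 10 mM library 1.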
